A study of Mus musculus with 16 samples.

Results

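The genes of MHC class I antigen presentation were followed in leukocytes of irradiated and untreated mouse tumors. Of the 31053 genes in each library's matrix, 10 were chosen by name, and all 10 were measured. They are the heavy chains H2-K1 and H2-D1, the light chain B2m, the peptide transporter subunits Tap1 and Tap2, the loading chaperone Tapbp (tapasin), the immunoproteasome subunits Psmb8, Psmb9 and Psmb10, and the transcriptional regulator Nlrc5. The rule that chose them uses no measured value, though it was written with earlier results of these data known.

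Single-cell RNA was captured from 16 libraries of live CD45+ cells, bead-enriched and then sorted from subcutaneous flank tumors of C57BL/6J mice. The tumors were grown from MC38, a colorectal carcinoma line, or Panc02-SIY, a pancreatic adenocarcinoma line that carries the model antigen SIY. There were 4 libraries in each of 4 groups: untreated MC38, irradiated MC38, untreated Panc02-SIY and irradiated Panc02-SIY. Irradiated tumors received a single CT-guided dose of 12 Gy and were taken 24 h later. All mice were otherwise unmodified as far as the labels say, mice entered the experiments at 6 to 8 weeks of age, and each tumor model rests on 1 transplanted line. The sort removes most tumor cells, so the values describe the leukocytes around the tumor cells and not the tumor cells themselves. A list of 11 tumor and stroma markers summed to 41.2 to 449 counts per 1000000 over the libraries, with the highest value in untreated Panc02-SIY. The labels do not tie each library to its own animal, so p-values measure the spread between libraries.

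Class I molecules display peptides from inside the cell to CD8 T cells and are read by NK cells, and nearly every nucleated cell carries them. The proteasome cuts proteins into peptides, and after interferon the subunits Psmb8, Psmb9 and Psmb10 take the places of the constitutive catalytic subunits Psmb5, Psmb6 and Psmb7. The Tap1/Tap2 transporter moves the peptides into the endoplasmic reticulum, where tapasin holds it beside the empty heavy chain and B2m until a peptide is bound. Nlrc5 is an interferon-inducible regulator that joins the RFX, CREB/ATF and NF-Y factors at the promoters of class I genes.

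The 10 genes lie on 3 mouse chromosomes of GRCm38. On chromosome 17, in the MHC region, are Tapbp (33915899-33929292, plus strand), H2-K1 (33996017-34000347, minus), Psmb9 (34181987-34187764, minus), Tap1 (34187553-34197225, plus), Psmb8 (34197721-34201454, plus), Tap2 (34203527-34216321, plus) and H2-D1 (35262730-35267499, plus). B2m lies on chromosome 2 (122147686-122153083, plus), and Nlrc5 (94434356-94527272, plus) and Psmb10 (105935735-105938444, minus) lie on chromosome 8. RefSeq promoter sequences of GRCm38.p6, 250 bases before to 50 after the start, were matched for 8 of the 10 genes and not for Tap2 and Nlrc5. The RefSeq starts of Tapbp, Psmb8, Psmb9 and H2-D1 lie inside the spans above. The sequence before the outer ends of these spans was therefore not searched for those genes.

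The promoters of both heavy chains and of B2m are shown because they, on 2 chromosomes, hold the same pair of motifs at the same spacing: the CREB/ATF core TGACG, then 20 bases, then ATTGG, the inverted CCAAT box that NF-Y binds. The capitals mark these motifs, and each 60-base window is written 5′ to 3′ on the strand of its gene.
H2-K1, chr17:34000349-34000408, minus strand: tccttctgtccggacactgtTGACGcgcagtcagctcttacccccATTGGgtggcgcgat
H2-D1, chr17:35262973-35263032, plus strand: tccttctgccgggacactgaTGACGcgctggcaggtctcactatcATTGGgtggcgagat
B2m, chr2:122147589-122147648, plus strand: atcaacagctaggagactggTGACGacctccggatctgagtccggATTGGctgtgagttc
The spacing was chosen after these sequences were seen. Searched on both strands, it was present in 31 of 32851 promoters of the same length (0.0944%), which belong to 27 genes, and H2-M3, a nonclassical class I heavy chain, is another of them. None of the other 5 members with a promoter held it. A match is a run of letters and was not tested as a binding site.

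Tap1 and Psmb9 are transcribed away from each other, and their promoter windows overlap (chr17:34187306-34187605, plus strand, for Tap1 and chr17:34187281-34187580, minus strand, for Psmb9). Both therefore hold the same TGACG core, shown here on the plus strand in capitals with 10 bases on each side.
Tap1 and Psmb9, chr17:34187460-34187484: cagagacaggTGACGacagagggtc
The interferon-stimulated pattern GAAA, any 2 bases, GAAA, present in 3.44% of all promoters, occurred in B2m alone among the 8, and the STAT pattern TTCNNNGAA, present in 8.3%, in Psmb8 alone. Only these exact letters were searched. A promoter without a match, such as those of the heavy chains, may still hold a variant of either pattern.
B2m, chr2:122147538-122147567, plus strand: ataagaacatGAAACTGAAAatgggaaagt
Psmb8, chr17:34198088-34198116, plus strand: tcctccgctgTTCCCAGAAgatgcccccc
TGACG alone was found in 20.8% of promoters and CCAAT, in either direction, in 37.4%.

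Some properties of the libraries bear on every value below. The MC38 libraries share cell barcodes: 9843 deposited barcodes were 2632 distinct ones, 1239 were in more than 1 of the 8 libraries, and 769 in all 8. A shared barcode was kept only in the library where it had most UMIs (unique molecular identifiers, one per captured RNA molecule), and MC38 results are also given with all barcodes as deposited. Pairs of MC38 libraries, of the same or different treatment, shared 71.9% to 92.1% of the barcodes of the smaller library. The library that was kept held a median of 76.4% of the UMIs of a shared barcode. The treatment group of such a barcode is therefore uncertain, and the MC38 libraries may not be independent, as the p-values assume. In Panc02-SIY, 18835 barcodes became 18136. Cells were then gated by fixed marker genes, which classed 16103 of 20768 barcodes (77.5%). T cells, NK cells, macrophages and monocytes had enough barcodes in all 4 groups, and CD8 T, CD4 T, regulatory T, B cells, neutrophils and dendritic cells only in Panc02-SIY. Barcodes were summed per library and class, and levels are given as CPM, UMIs per 1000000 UMIs of the scaled library. The sums over all CD45+ cells held 1385711 to 43708746 UMIs per library. In such sums a lower level can come from fewer cells of a type or from less RNA per cell, and these cannot be told apart. Macrophages were deeper in MC38 than in Panc02-SIY, with median UMIs per barcode of 14208.5 to 27799 against 1274 to 10041. A gene was called when the Benjamini-Hochberg adjusted p of edgeR's quasi-likelihood test was under 0.1 and the fold was over 1.3. The annotated transcript ends of H2-K1 and H2-D1 were mostly distinct. Of the 451 50-base words in the last 500 bases of each transcript, H2-K1 shared 2 (0.443%) with H2-D1. H2-D1 shared 43 (9.53%) with other genes, among which H2-K1 was the only class I gene. The reads themselves were not examined, and heavy chains outside the 10 members were not checked in this way.

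The first question was whether radiation changed these genes in MC38. Over all CD45+ cells Nlrc5 and Tap2 rose 24 h after 12 Gy, and each of the 10 genes had a positive log2 fold change. Among all 12447 genes tested, 11.7% were called, 7.24% as higher, against 2 of the 10 members. The median member log2 fold change was 0.29 and that of all genes 0.04. By unadjusted p under 0.05 the members counted 7, beside 3095 of the 12447 genes.

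Nlrc5, the regulator, stood at 34.5, 42.1, 26.8 and 35.8 CPM in the untreated MC38 libraries and at 77.0, 53.2, 58.7 and 52.4 CPM in the irradiated ones. Every irradiated library lay above every untreated one. The log2 fold change was 0.78 ± 0.16 (SE; adjusted p = 0.00584), and with all barcodes as deposited it was 0.53 (adjusted p = 0.0454). It was no longer called among the barcodes with at least 80% of their UMIs in 1 library (adjusted p = 0.374). T cells had the highest Nlrc5 level of the MC38 classes, and their markers summed to 187 to 323 CPM in the untreated and 150 to 745 CPM in the irradiated libraries. Their part in the result was not tested.

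Tap2, a transporter subunit, measured 145, 196, 132 and 163 CPM without and 224, 227, 182 and 201 CPM with radiation. The lowest irradiated library was below the highest untreated one. The log2 fold change was 0.39 ± 0.11 (adjusted p = 0.0391), and as deposited it was 0.27 and not called (adjusted p = 0.131). Its partner Tap1 had 252, 307, 204 and 289 CPM against 365, 350, 297 and 304 CPM, a log2 fold change of 0.32 ± 0.12 (adjusted p = 0.0979) that was just under the fold limit and was not called.

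H2-K1 measured 2606, 2696, 2563 and 2710 CPM in untreated and 3654, 3646, 3065 and 3211 CPM in irradiated MC38. The groups did not overlap and the adjusted p was 0.00847, but the log2 fold change of 0.36 ± 0.08 was below the fold limit, so it was not called. The same held for B2m, with 3687, 3946, 4034 and 4063 CPM against 4531, 4920, 4399 and 4478 CPM (log2 fold change 0.22 ± 0.07, adjusted p = 0.0724). H2-D1 (0.25 ± 0.09, adjusted p = 0.0992) and Tapbp (0.35 ± 0.10, adjusted p = 0.0437) also had groups that did not overlap and folds below the limit. The share of all genes whose groups did not overlap was not counted, here or in any comparison below.

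The immunoproteasome subunits had the smallest differences of the 10. Psmb8 measured 762, 886, 717 and 820 CPM without and 796, 1015, 871 and 900 CPM with radiation, and the groups overlapped. Its log2 fold change was 0.17 ± 0.13, that of Psmb9 0.13 ± 0.15 and that of Psmb10 0.17 ± 0.12, with adjusted p of 0.466, 0.637 and 0.435.

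**Figure D1:**
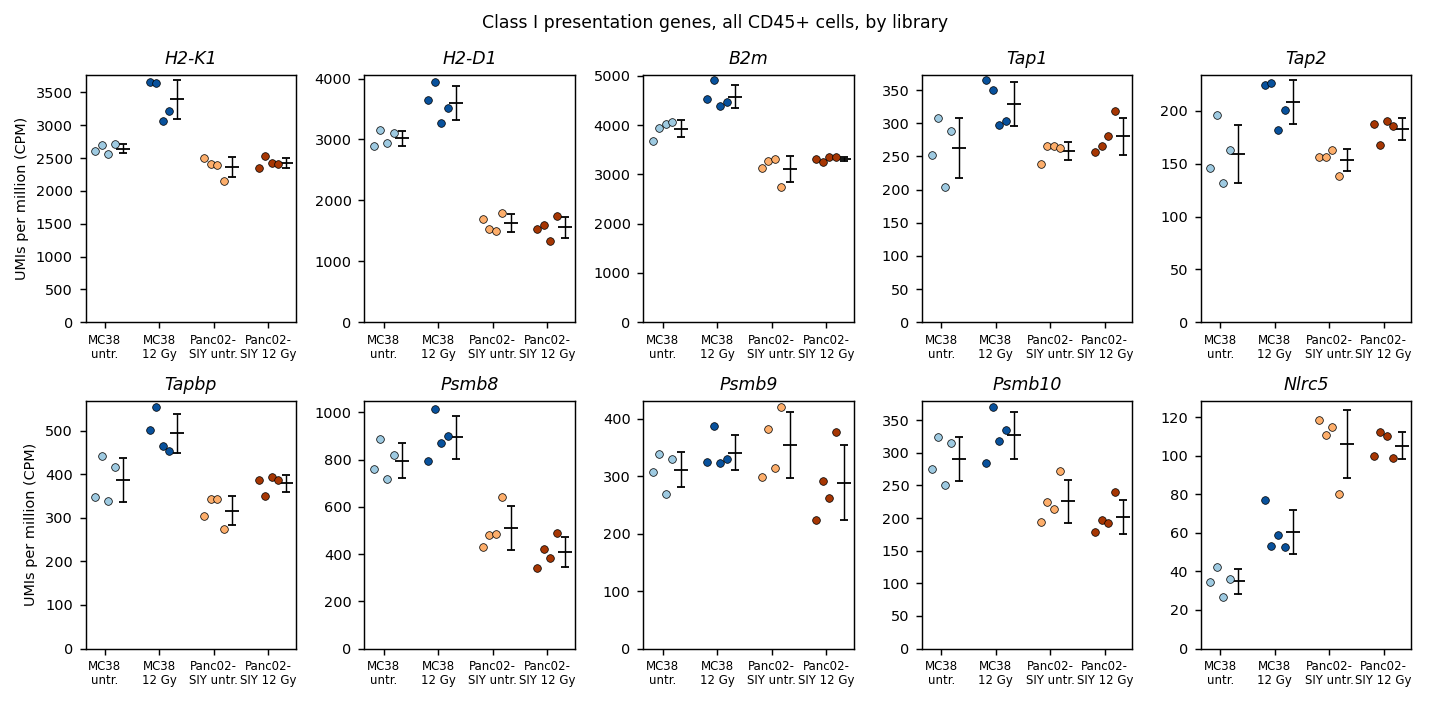
Levels of the 10 genes in CPM (y axis, 1 panel per gene) over all CD45+ cells of each library, by group on the x axis, with 1 point per library and the mean and SD of 4 libraries. Nlrc5 was at 26.8 to 42.1 CPM in untreated MC38, below all other groups, and H2-D1 was higher in every MC38 library than in every Panc02-SIY library.

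Within classes, 3 calls were made over the 4 classes in MC38: H2-K1 and Nlrc5 in macrophages and Nlrc5 in NK cells. In macrophages 9.6% of all genes were called, 4.5% as higher, and in NK cells 0.188%, 0.138% as higher. H2-K1 in macrophages was 2444, 2604, 2413 and 2551 CPM without and 3486, 3700, 3146 and 3042 CPM with radiation, with no overlap (log2 fold change 0.42 ± 0.10, adjusted p = 0.0184). With barcodes as deposited it was 0.32 (adjusted p = 0.0755), a fold under the limit. Nlrc5 in macrophages was 31.4, 29.0, 18.1 and 27.6 CPM against 58.8, 39.6, 33.7 and 37.1 CPM, also without overlap (0.62 ± 0.22, adjusted p = 0.0939). This call was lost as deposited (0.44, adjusted p = 0.271) and on leaving out 6 of the 8 libraries in turn. T-cell markers summed to 9.47 to 23.5 CPM in untreated and 12.6 to 23.2 CPM in irradiated macrophages, nearly the same range. All 10 members had positive log2 fold changes in macrophages, with a median of 0.27 against 0.00 for all genes. An unadjusted p under 0.05 was found for 6 of them, beside 2116 of 10259 genes.

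**Figure D2:**
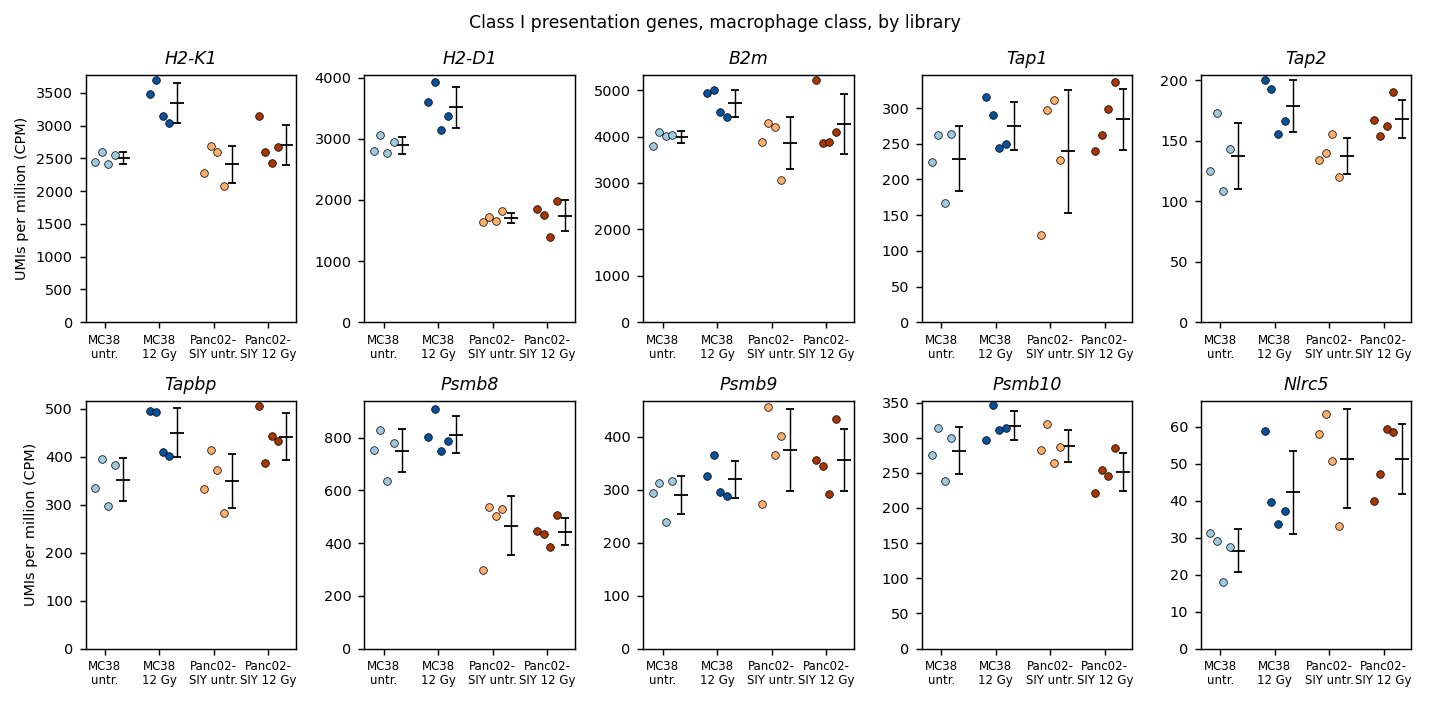
Levels of the 10 genes in CPM (y axis, 1 panel per gene) in the macrophage class of each library, by group on the x axis, with 1 point per library and the mean and SD. In irradiated MC38 the H2-K1 points, at 3042 to 3700 CPM, were all above those of untreated MC38, at 2413 to 2604 CPM.

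In NK cells Nlrc5 rested on few molecules. The 3 untreated libraries with enough barcodes held 5 Nlrc5 UMIs in 43 barcodes (18.7, 17.2 and 9.10 CPM) and the 3 irradiated ones 30 in 53 (85.9, 99.3 and 78.1 CPM). The ratio of levels was 5.66, with a 95% counting interval of 2.17 to 18.7 that covers counting error only, and the log2 fold change was 2.49 ± 0.55 (adjusted p = 0.0405). As deposited it was 2.48 (adjusted p = 0.042), and it was not called with the stricter gate (2.09, adjusted p = 0.236) or without untreated library 1 or 4 or irradiated library 3 or 4. The irradiated level was near that of Panc02-SIY NK cells, at 67.4 to 98.5 CPM in their 8 libraries. The median share of mitochondrial UMIs in the MC38 NK libraries used was 3.52% to 9.89% untreated and 3.15% to 8.02% irradiated.

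T cells and monocytes had no member called by edgeR in MC38, with 0.353% and 0.0675% of all genes called. None of their members had an unadjusted p under 0.05, beside 993 of 9922 and 381 of 5930 genes. DESeq2 called none of them in these classes either. In T cells Nlrc5 measured 124 ± 39 CPM (SD, n = 4) without and 121 ± 32 CPM (n = 3) with radiation, and H2-K1 3819 ± 735 and 4383 ± 500 CPM. In monocytes H2-K1 was 2594 ± 148 CPM without and 2363 ± 144 CPM with radiation (n = 4 each, log2 fold change -0.14 ± 0.11, adjusted p = 0.883). These classes were small, with 86 and 123 T-cell and 106 and 169 monocyte barcodes in the untreated and irradiated groups. Changes may have been missed, and the smallest detectable change was not estimated.

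The same contrast in Panc02-SIY gave no called member in the main fit. Over all CD45+ cells and 10 classes, 108 tests of a member were made with edgeR, 0 were called, and 17 had an unadjusted p under 0.05. Among all genes such a p was reached by 3467 of 12447 over all CD45+ cells, 1701 of 9922 in T cells and 2121 of 10362 in CD8 T cells. The counts were 1719 of 10259 in macrophages, 704 of 7994 in NK cells, 485 of 5930 in monocytes and 427 of 4214 in CD4 T cells. They were 213 of 3311 in regulatory T cells, 155 of 1570 in B cells, 285 of 5125 in neutrophils and 282 of 4213 in dendritic cells. DESeq2, run on all CD45+ cells and the 4 classes shared with MC38, called 1, Psmb10 in NK cells (log2 fold change -0.49, adjusted p = 0.0978). With the replicate number as a block, edgeR called Psmb8 in T cells (-0.39, adjusted p = 0.0925) and Psmb9 in NK cells (-0.55, adjusted p = 0.0922). In the main fit, the share of all genes called was 14.7% over all CD45+ cells, 5.4% in T cells and 7.06% in CD8 T cells. The share was 4.04% in macrophages, 0.213% in NK cells and 0% in monocytes. It was 1.4% in CD4 T cells, 0.0604% in regulatory T cells, 0.039% in neutrophils, 0.142% in dendritic cells and 0% in B cells. Tap2 and Nlrc5 were too low for a test in B cells.

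H2-K1 was 2497, 2411, 2395 and 2145 CPM in untreated and 2351, 2525, 2420 and 2413 CPM in irradiated Panc02-SIY over all CD45+ cells. Nlrc5 was 119, 111, 115 and 80 CPM against 99.7, 112, 110 and 98.8 CPM. In both genes the groups overlapped and the means were close. The 95% interval of the log2 fold change ran from -0.11 to 0.19 for H2-K1 and from -0.28 to 0.27 for Nlrc5.

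The immunoproteasome subunits had negative values in most Panc02-SIY populations, without a call in the main fit. Psmb8 had a negative log2 fold change in 11 of 11 populations, Psmb9 in 10 and Psmb10 in 8, and H2-D1 in 10. H2-K1 and B2m were positive in 10 of 11 and Tap1 and Tapbp in 9. These populations share cells and libraries, so their signs are not independent. Psmb8 over all CD45+ cells was 430, 480, 485 and 643 CPM without and 340, 421, 383 and 488 CPM with radiation, with the groups overlapping (log2 fold change -0.32 ± 0.13, adjusted p = 0.117). The lowest adjusted p of any member was 0.105, for Tapbp over all CD45+ cells at 0.26 ± 0.10. In CD8 T cells, which are most of the T-cell class, Psmb10 had -0.35 ± 0.12 (adjusted p = 0.11) and Tap2 0.25 ± 0.09 (adjusted p = 0.119).

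**Figure D3:**
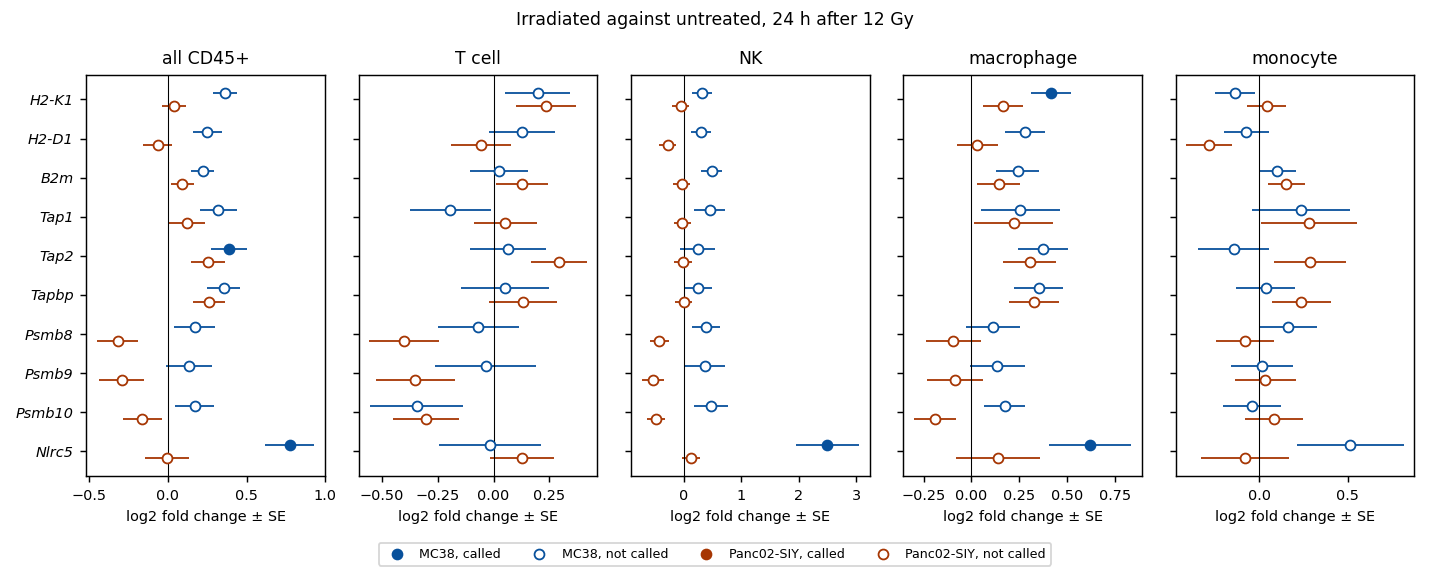
Log2 fold change of irradiated against untreated libraries (x axis) for each of the 10 genes (y axis) by population, for MC38 and Panc02-SIY, with the SE as bars and filled points for calls. Over all CD45+ cells the MC38 values ran from 0.13 for Psmb9 to 0.78 for Nlrc5, and the Panc02-SIY values from -0.32 for Psmb8 to 0.26 for Tapbp.

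Whether radiation acted differently in the tumors was tested by an interaction term. No member was called in any of the 5 populations by edgeR, where 0.345% of all genes were called over all CD45+ cells, 0.00975% in macrophages and 0% in T cells, NK cells and monocytes. At an unadjusted p under 0.05 there were 4 members over all CD45+ cells, 6 in NK cells, 1 in macrophages and 0 in T cells and monocytes. Among all genes such a p was reached by 1472 of 12447 over all CD45+ cells, 579 of 7994 in NK cells and 591 of 10259 in macrophages. It was reached by 556 of 9922 in T cells and 322 of 5930 in monocytes. Nlrc5 over all CD45+ cells had a difference of log2 fold changes of 0.78 ± 0.21 (adjusted p = 0.15). DESeq2 called this difference (0.75, adjusted p = 0.065) and 4 others, all in NK cells (B2m, H2-D1, Psmb8 and Psmb10). A call for Nlrc5 in MC38 and none in Panc02-SIY was thus a difference between tumors by 1 tool and not by the other. The share of all genes that DESeq2 called was not counted, here or in any other comparison. Its member calls therefore cannot be set beside the shares above, which are those of edgeR.

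The tumors were next compared with each other at the same treatment. Beside these counts stand large shares of all genes: 61.1% of genes were called between untreated MC38 and Panc02-SIY over all CD45+ cells, and 58.5% between irradiated ones. Cell composition moved with the tumor. T-cell markers summed to 187 to 323 CPM in untreated MC38 and 2950 to 3665 CPM in untreated Panc02-SIY. Macrophage markers summed to 9738 to 11932 and 588 to 4038 CPM, and neutrophil markers to 51.1 to 81.5 and 615 to 2094 CPM. Values within classes, or their range or calls, are therefore given as well.

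H2-D1 was higher in MC38 in every population and at both treatments. Its levels over all CD45+ cells were 2893, 3153, 2937 and 3099 CPM in untreated MC38 and 1688, 1525, 1499 and 1798 CPM in untreated Panc02-SIY (log2 fold change 0.89 ± 0.09, adjusted p = 4.68e-07). Within classes the untreated values were 0.94 ± 0.14 in T cells, 0.64 ± 0.16 in NK cells, 0.76 ± 0.11 in macrophages and 0.73 ± 0.13 in monocytes. All were called, beside 13%, 7.23%, 45% and 29.8% of all genes. After radiation they were 1.12, 1.22, 1.01 and 0.94, again all called, beside 12.4%, 13.7%, 47.1% and 40.4% of genes. In macrophages the libraries were 2798, 3053, 2766 and 2948 CPM in MC38 against 1634, 1722, 1650 and 1811 CPM in Panc02-SIY without radiation. No MC38 library of any class lay as low as the highest Panc02-SIY library of that class.

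H2-K1, which encodes the other classical heavy chain of this strain, had smaller differences than H2-D1 in every population except untreated monocytes, though the genes were not tested against each other. Its untreated log2 fold change over all CD45+ cells was 0.16 ± 0.08 (not called) and its irradiated one 0.48 ± 0.08 (adjusted p = 5.14e-05). Monocytes carried the largest untreated difference of the 4 classes, 0.80 ± 0.11, with 2730, 2713, 2471 and 2460 CPM in MC38 against 1635, 1352, 1377 and 1608 CPM in Panc02-SIY. T cells had 0.43 ± 0.14 (adjusted p = 0.0527) and macrophages 0.05 ± 0.10 (adjusted p = 0.726). After radiation the H2-K1 values of the 4 classes ran from 0.30 to 0.63, and 2 of them were called.

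Psmb8 was higher in MC38 over all CD45+ cells, by 0.64 ± 0.13 untreated (adjusted p = 0.000444) and 1.13 ± 0.13 irradiated (adjusted p = 2.59e-06). In irradiated libraries it was called in each of the 4 classes, at 0.65 ± 0.17 in T cells, 1.18 ± 0.20 in NK cells, 0.87 ± 0.14 in macrophages and 0.98 ± 0.16 in monocytes. In untreated libraries it was called in macrophages and monocytes. Psmb9, its partner subunit, went the other way in untreated macrophages, where it was lower in MC38 (-0.39 ± 0.14, adjusted p = 0.0366). Psmb10 was called over all CD45+ cells after radiation (0.69 ± 0.12) and in no class, and the same was true of B2m (0.47 ± 0.07). Within the 4 classes the irradiated values ran from -0.14 to 0.56 for Psmb10 and from -0.23 to 0.33 for B2m. The B2m difference over all CD45+ cells turned to -0.43 among barcodes with at least 80% of their UMIs in 1 library. It was -0.26 when every barcode was thinned to 1000 UMIs. Tapbp was called over all CD45+ cells after radiation (0.38 ± 0.10) and, of the classes, in untreated monocytes (0.54 ± 0.17), where Tap2 (0.72 ± 0.21) was called as well. Tap1 was called once, in irradiated NK cells (0.64 ± 0.21, adjusted p = 0.0452).

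Nlrc5 was the member that was lower in MC38 in most populations. Without radiation the log2 fold change was -1.61 ± 0.15 over all CD45+ cells (adjusted p = 1.55e-07), -2.47 ± 0.47 in NK cells, -0.89 ± 0.22 in macrophages and -0.84 ± 0.30 in monocytes, all called, and -0.30 ± 0.18 in T cells (adjusted p = 0.351). After radiation it was -0.83 ± 0.15 over all CD45+ cells (adjusted p = 0.000168) and was not called in any of the 4 classes, where it lay between -0.45 and -0.10. In untreated macrophages the levels were 18.1 to 31.4 CPM in MC38 and 33.1 to 63.6 CPM in Panc02-SIY, and the groups did not overlap.

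In all, the untreated tumors differed in 3 members over all CD45+ cells and in 14 calls over the 4 classes, and the irradiated ones in 7 and 11. Over all CD45+ cells these are 3 and 7 of 10 members, beside 61.1% and 58.5% of all genes called. Each class was tested for the same 10 members. Beside the class calls stand 13%, 7.23%, 45% and 29.8% of all genes in untreated T cells, NK cells, macrophages and monocytes. The irradiated shares were 12.4%, 13.7%, 47.1% and 40.4% in the same order. Most of the 7 irradiated calls over all CD45+ cells depended on the barcodes used. Far fewer members were called when barcodes were thinned, or among those with at least 80% of their UMIs in a single library. The 14 class calls were also fewer in both settings. The share of all genes called in these settings was not counted. Scaling by library size alone, in place of TMM, moved the median log2 fold change of all genes between the tumors over all CD45+ cells. It went from -0.04 to -0.24 untreated and from 0.004 to -0.37 irradiated, and the differences above are relative to the TMM scale.

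**Figure D4:**
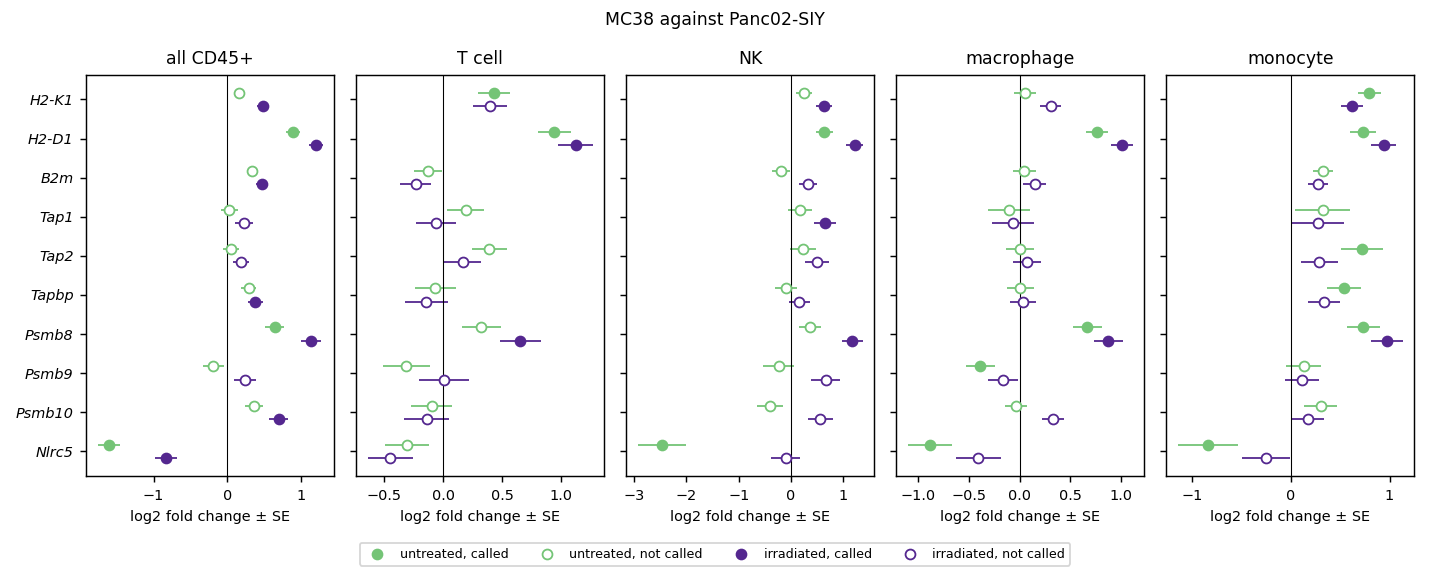
Log2 fold change of MC38 against Panc02-SIY (x axis) for each of the 10 genes (y axis) by population, for untreated and irradiated libraries, with the SE as bars and filled points for calls. H2-D1 was above 0 in each of the 5 populations at both treatments, from 0.64 to 1.22, and Nlrc5 was below 0 throughout.

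The order of the cell classes was examined next, with both treatments of a tumor pooled and classes of the same library compared in 1 fit that had its own scaling. In Panc02-SIY the neutrophils had the highest level of 6 of the 10 genes: H2-D1 (4070 ± 563 CPM, SD over 8 libraries), B2m (7141 ± 745), Tap1 (682 ± 87.8), Tap2 (551 ± 98.0), Tapbp (976 ± 176) and Nlrc5 (184 ± 45.8). The first 5 of these differed by a call from the class ranked next, which was macrophages for B2m, regulatory T cells for H2-D1 and Tap2, and dendritic cells for Tap1 and Tapbp. Of all genes, 73.9%, 66% and 71.6% were called between neutrophils and these classes. Such shares for class pairs count both directions. For Nlrc5 the next class, CD8 T cells, had 169 ± 17.3 CPM and did not differ by a call, beside 77.9% of all genes. Against macrophages, the other abundant phagocytes, neutrophils were higher in 8 of 10 members and lower in none, with log2 fold changes of 1.75 ± 0.11 for Tap2, 1.77 ± 0.16 for Nlrc5 and 1.12 ± 0.08 for H2-D1. Neutrophils had only 1971 to 2768 median UMIs per barcode, and the part of their low RNA content in these shares of the total was not tested.

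Dendritic cells, which prime CD8 T cells through class I, led in 2 immunoproteasome subunits. Psmb8 was 1037 ± 181 CPM there, called above neutrophils (787 ± 201), which were called above monocytes (576 ± 126), with 63.6% of all genes called between the latter classes. Psmb9 was 842 ± 193 CPM against 651 ± 112 in neutrophils, a difference that was not called. Psmb10 was highest in monocytes (345 ± 58.7) and H2-K1 in regulatory T cells (3888 ± 497, n = 7), and neither was called above the next class, macrophages (46.5% of genes called) and CD4 T cells (14.9%).

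B cells, from 7 libraries, ranked last for 9 of the 10 genes, with 1734 ± 382 CPM for B2m, 1428 ± 126 for H2-K1 and 1038 ± 253 for H2-D1. Against neutrophils 10 of 10 members were lower in B cells, beside 60.4% of genes called. NK cells ranked last for Tap1 (149 ± 17.9) and next to last, above B cells, for 6 others. Against NK cells, CD8 T cells were higher in 5 members, beside 34.4% of all genes: Tap1 by 1.04, Psmb9 by 0.98, Nlrc5 by 0.95, Psmb8 by 0.84 and Tap2 by 0.65 on the log2 scale. CD8 and CD4 T cells did not differ in any member by a call, beside 18.9% of all genes.

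In MC38 the 4 classes stood in a partly similar order. T cells had the highest Nlrc5 level (123 ± 33.7 CPM, 7 libraries), called above monocytes (68.3 ± 24.2). NK cells (49.8 ± 39.6, 6 libraries) and macrophages (35.6 ± 12.0) followed. Nlrc5 was called in 4 of the 6 class pairs, all but those of NK cells with monocytes and with macrophages. The log2 fold change of T cells against macrophages was 1.90 ± 0.20, beside 61.4% of genes called. Against NK cells, T cells were higher in 5 members, beside 12.2% of genes: Nlrc5 (1.39 ± 0.33), Tap1 (0.80), Tap2 (0.73), Psmb8 (0.71) and Psmb9 (0.71). Monocytes had the highest Tap1 (409 ± 97.2), Tapbp (618 ± 95.4), Psmb8 (1008 ± 128), Psmb9 (348 ± 52.8) and Psmb10 (392 ± 48.3). Of these, only Tapbp was called above the class ranked next, macrophages. H2-D1 was called in none of the 6 class pairs, with means between 3039 and 3529 CPM, although many other genes were. The shares called were 62% between T cells and monocytes, 55.8% and 56.9% between NK cells and macrophages or monocytes, and 32.5% between macrophages and monocytes. Over all pairs, 32 calls were made for members in MC38 and 231 in the 36 pairs of Panc02-SIY, where 14.9% to 77.9% of all genes were called in a pair.

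**Figure D5:**
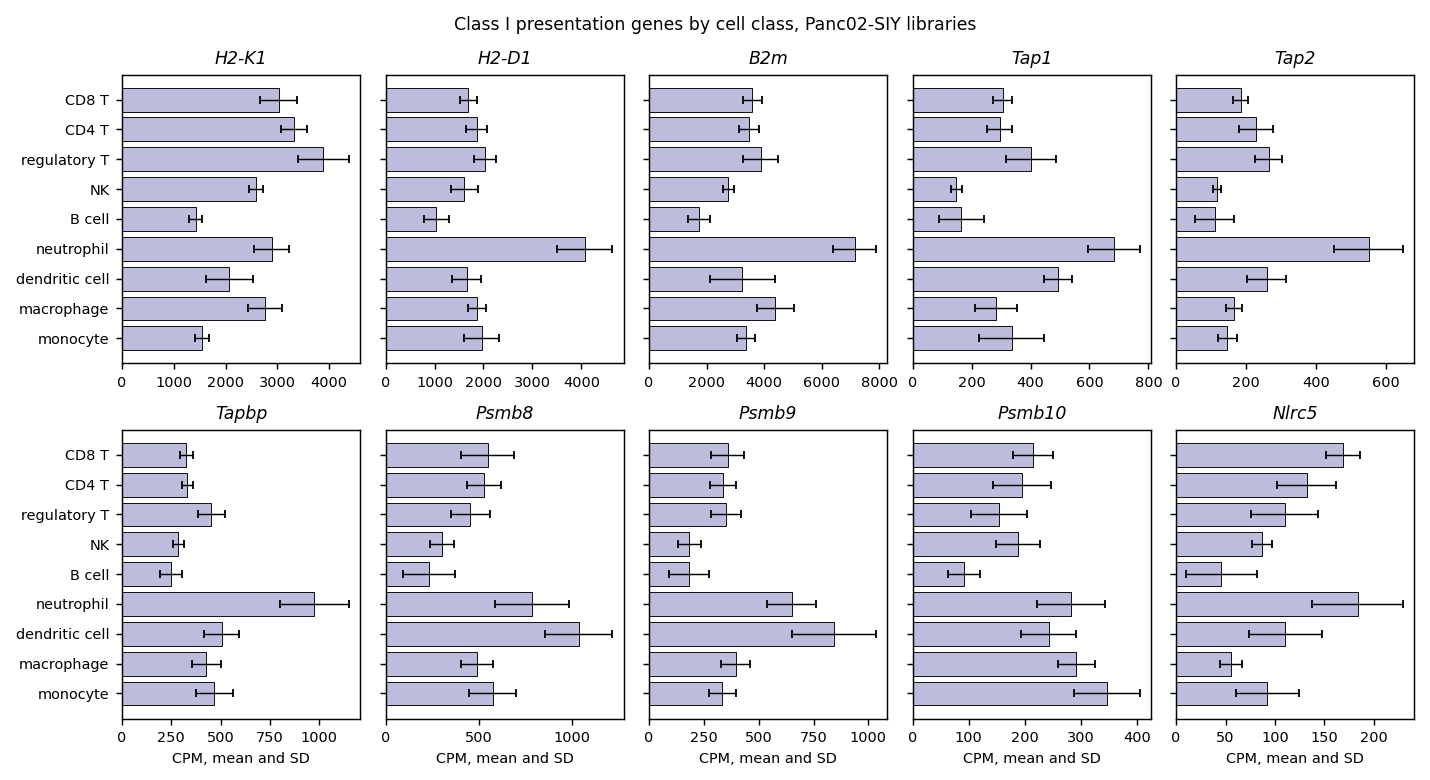
Mean level in CPM (x axis, 1 panel per gene) of each gene in the 9 Panc02-SIY classes (y axis), with the SD over 8 libraries, or 7 for B cells and regulatory T cells. The neutrophil bar is the longest for 6 genes, among them B2m at 7141 CPM, and the B cell bar the shortest for 9.

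The balance between immunoproteasome subunits and the constitutive subunits that they replace was given as a log2 ratio of UMIs over all CD45+ cells. These are 3′ counts with an unknown capture rate for each gene, so only differences of 1 ratio between groups are read, and no test was made. Psmb8/Psmb5 went from 1.85 ± 0.20 to 2.29 ± 0.10 with radiation in MC38 (SD, n = 4), while Panc02-SIY had 1.72 ± 0.05 before and 1.84 ± 0.18 after it. A ratio also moves with its constitutive subunit. The log2 fold change of Psmb8 itself between the MC38 groups was smaller than this shift in the ratio, and it was not called. The 14 constitutive subunits had log2 fold changes of -0.26 to 0.04 there, with none called. Both MC38 values of Psmb9/Psmb6, 0.41 ± 0.20 untreated and 0.65 ± 0.09 irradiated, were below those of Panc02-SIY, 1.21 ± 0.13 and 1.28 ± 0.14. Within macrophages they were 0.28 ± 0.26 and 0.50 ± 0.14 against 1.13 ± 0.15 and 1.11 ± 0.29. Untreated monocytes were near each other (0.85 ± 0.20 and 0.88 ± 0.18), and in irradiated NK cells the MC38 mean was the higher one (0.67 ± 0.74, n = 3, against 0.35 ± 0.35). For Psmb10/Psmb7 the MC38 means were 1.10 ± 0.17 untreated and 1.25 ± 0.11 irradiated, and the Panc02-SIY means 1.26 ± 0.07 and 1.37 ± 0.04. When barcodes were thinned, the irradiated mean was the lower one in both tumors, and untreated MC38 was above untreated Panc02-SIY.

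Across the 16 class-by-group means the members did not share 1 pattern. The median Pearson correlation over the 45 pairs of members was 0.46, with a range of -0.57 to 0.87. Tap1 was nearest to the mean member profile (r = 0.92), and H2-K1 (0.13) and Nlrc5 (0.27) were farthest from it. Each member is part of that mean, which raises its r, so members are not compared with genes outside the list. Of 5384 genes compared, those outside the list that were most like the mean profile were H2-T23 (r = 0.91), Ehd1 (0.87), Ly6a (0.87), Prelid1 (0.85) and Ifit3 (0.83). The points share libraries, depth and tumors, and the correlations are descriptions with no p.

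The other genes of the pathway were counted in 4 lists: other class I heavy chains, peptide loading and trimming, the constitutive proteasome, and regulators. In irradiated against untreated MC38, 4 of 10 tested heavy chains were higher and none lower over all CD45+ cells. The same 4 were higher in macrophages. Of all genes 11.7% and 9.6% were called, 7.24% and 4.5% as higher. These nonclassical and related chains, named after their values were seen, were H2-T22 (0.70 ± 0.13 in macrophages), H2-T23 (0.62 ± 0.15), H2-T24 (0.86 ± 0.26) and H2-Q7 (0.52 ± 0.15). Over all CD45+ cells H2-T24 had 0.92, which turned to -0.077 when barcodes were thinned. Of 20 regulators 7 were higher and 1 lower over all CD45+ cells, and 4 were higher and 1 lower in macrophages, beside the same shares of all genes. Also named after their values were seen, in macrophages the interferon signaling genes Stat2 (0.66 ± 0.15), Irf9 (0.44 ± 0.13), Irf2 (0.40 ± 0.11) and Jak2 (0.74 ± 0.21) were higher and the histone methyltransferase gene Ezh2 was lower (-1.31 ± 0.22). No gene of the 14 constitutive subunits and none of the 14 loading genes was called in either population. Over all CD45+ cells 0 and 1 had an unadjusted p under 0.05, beside 3095 of 12447 genes.

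In irradiated Panc02-SIY, subunits of the constitutive proteasome fell. Of its 14 genes 7 were lower over all CD45+ cells, beside 14.7% of all genes called, and 8 in T cells, beside 5.4%. Among all genes called, 52.4% and 39.4% were higher in these populations and the rest lower. The subunits had median log2 fold changes of -0.38 and -0.46, against -0.03 and 0.02 for all genes. The called genes in T cells included Psmb3 (-0.58 ± 0.12, adjusted p = 0.0123), Psmb2 (-0.62 ± 0.14), Psma4 (-0.59 ± 0.15), Psmb5 (-0.60 ± 0.15), Psma5 (-0.50 ± 0.13) and Psma2 (-0.49 ± 0.13). The same 6 were called in CD8 T cells, beside 7.06% of all genes, but these cells are most of the T-cell class and not a separate set. Median UMIs per T-cell barcode were 7523 to 9087 in untreated and 5133.5 to 6783 in irradiated Panc02-SIY libraries. In MC38, where none was called, the medians were -0.02 over all CD45+ cells and -0.25 in T cells. The interaction called 1 of the 14 over all CD45+ cells, Psmb3 (0.55 ± 0.12, adjusted p = 0.0989), and 0 in T cells, with 6 and 2 at an unadjusted p under 0.05. Such a p was found for 1472 of 12447 and 556 of 9922 of all genes.

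Between the tumors, 10 constitutive subunits were higher in MC38 untreated and 13 irradiated over all CD45+ cells, and none was lower. Of all genes 61.1% and 58.5% were called, and 47.6% and 51.1% of those called were higher. In untreated T cells 1 subunit was higher and 2 were lower. Psmb2 was higher in each of the 4 classes after radiation, from 0.73 ± 0.18 in T cells to 1.42 ± 0.23 in NK cells, and Psma1 in macrophages (0.62 ± 0.11) and monocytes (0.64 ± 0.15). Psme1, a subunit of the proteasome activator, was higher in irradiated NK cells (0.66 ± 0.18) and monocytes (0.62 ± 0.13), with negative values in both when barcodes were thinned. The heavy chain H2-Q10 was higher in untreated T cells (1.73 ± 0.26) and NK cells (1.54 ± 0.37), and H2-T23 in untreated T cells (0.66 ± 0.14) and monocytes (0.70 ± 0.16). Of the regulators, the cytokine signaling kinase gene Jak1 was lower in untreated MC38 T cells (-0.61 ± 0.13), NK cells (-0.79 ± 0.19) and monocytes (-0.82 ± 0.20). The CREB-family gene Creb1 was lower in untreated macrophages (-0.79 ± 0.14) and monocytes (-1.11 ± 0.30). The interferon gamma receptor gene Ifngr1 was higher in untreated T cells (0.48 ± 0.13) and macrophages (0.98 ± 0.16), and the feedback inhibitor gene Socs1 in irradiated T cells (0.58 ± 0.14) and NK cells (1.08 ± 0.22). In thinned barcodes the T-cell values of H2-T23, Ifngr1 and Socs1 were -0.024, -0.12 and -0.10.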

How the data were processed

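Libraries were made with 10x Genomics 3′ chemistry, and per the submitters' processing notes reads were handled with bcl2fastq 2.20.0 and Cell Ranger 3.1.0 on mm10. The authors deposited a matrix of UMI counts per gene and cell barcode for each of the 16 libraries, not normalized. A barcode found in several libraries of a tumor was kept where it had most UMIs. A barcode took the class with the highest share of fixed markers detected, with at least 3 markers and a lead of at least 0.15 in that share (0.3 for dendritic cell classes). This gate was set after looking at marker values. No doublet caller was run. Counts were summed per library and class where a class had at least 10 barcodes, in at least 3 libraries per group, and fitted across all genes with edgeR 4.0.16 (TMM, quasi-likelihood test, R 4.3.3) with 1 model over all groups and Benjamini-Hochberg adjustment over all genes tested. DESeq2 1.42.0 was an alternative. The scripts were tested on simulated data with 200 changed genes. The members and lists were chosen with earlier results of these data known. Beyond the 10 members, pathway genes were named when called in the same direction in at least 2 classes, up to 6 per contrast, and the 5 genes most like the members. In irradiated against untreated MC38 no gene met this rule, and those named there were chosen after their values were seen. A gene that this rule names is not reported here. The 6 classes used only in Panc02-SIY were added after barcode counts were seen. Alternatives were other scalings, filters, thresholds, barcode rules, thinning and leaving out each library. The study's methods and the labels differ on the number of animals per group (3 and 4).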

Additional observations from a re-analysis of the deposited data

Results flagged for a closer look

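Of 182 groups of 4 libraries examined, 13 held a library whose gap to its nearest neighbor passed Dixon's 95% critical value for the share of the group's range, and chance gives about 1 in 20. No cause was tested.

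Over all CD45+ cells, Tap1 in untreated Panc02-SIY library 1 was 238.359 CPM (others 262.441 to 266.354), Tapbp in irradiated Panc02-SIY library 2 was 349.23 CPM (386.493 to 393.602), and Psmb9 in irradiated MC38 library 2 was 387.847 CPM (323.53 to 329.446). The log2 ratio of Psmb9 to Psmb6 in untreated MC38 library 3 was 0.11038 (0.500824 to 0.522902).

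In T cells, untreated MC38 library 4 was high in Tapbp, at 399.109 CPM (274.763 to 291.899), and in Psmb8, at 892.745 CPM (744.057 to 768.405). Untreated Panc02-SIY library 4 was high in Psmb8 in T cells, at 873.132 CPM (536.182 to 555.688), in Psmb10 in T cells, at 293.409 CPM (226.189 to 230.207), and in Psmb8 in NK cells, at 447.604 CPM (313.924 to 334.391). Irradiated Panc02-SIY library 4 was likewise high in Psmb8 in monocytes, at 745.921 CPM (459.616 to 495.836).

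In macrophages, B2m in irradiated Panc02-SIY library 1 was 5226.66 CPM (3863.65 to 4093.76), and Psmb8 in untreated Panc02-SIY library 1 was 299.512 CPM (502.444 to 535.997). In monocytes, Psmb10 in irradiated MC38 library 2 was 428.625 CPM (376.794 to 385.538).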

How the results depend on the processing

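The MC38 radiation calls depend most on the processing. Outside the main fit, the share of all genes called was not counted under any setting of this section. The member counts are therefore not set against a change in all genes. Over all CD45+ cells 2 members were called, and 1 was called with barcodes as deposited, with library size as the only scaling, without a filter on low counts, without the 5% of barcodes with most UMIs, with a log2 limit of 0.58, or with only the groups compared in the fit. With barcodes filtered by genes and mitochondrial share 4 were called, and 0 with barcodes of at least 80% of UMIs in 1 library or thinned to 1000 UMIs. The 3 calls within classes became 1 as deposited and by library size, and 0 among the 80% barcodes and when thinned. Leaving out 1 library gave 1 to 4 calls over all CD45+ cells and 1 to 4 within classes. Nlrc5 over all CD45+ cells was called without each of the 8 MC38 libraries, and Tap2 was lost without untreated library 1 or 3 or irradiated library 1 or 2.

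In Panc02-SIY the 0 calls within classes became 1 among the 80% barcodes, 1 by DESeq2, 1 with only the groups compared and 0 to 1 on leaving out a library, and over all CD45+ cells 0 to 1 (Psmb9, without irradiated library 4). Tapbp in macrophages was called without untreated library 2, and Psmb9 in NK cells without irradiated library 4. The interaction, with 0 calls, gave 1 over all CD45+ cells and 4 within classes by DESeq2, and 0 to 1 on leaving out a library, which was Nlrc5 without untreated Panc02-SIY library 4 (0.81, adjusted p = 0.0719).

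The labels do not say whether libraries with the same replicate number belong together. Deviations of same-numbered libraries had correlations of -0.04 to 0.08 in MC38, where 1 pair of 4 matched its own number best. In Panc02-SIY the correlations were -0.16 to 0.75, and 3 pairs of 4 matched their own number best. With the replicate number as a block, 2 calls appeared in Panc02-SIY classes, Psmb8 in T cells (-0.39) and Psmb9 in NK cells (-0.55), and the MC38 counts were 2 and 4.

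Between untreated tumors the 3 members called over all CD45+ cells became 5 as deposited and 5 with the barcode filter, and the 14 class calls became 9 among the 80% barcodes and 8 when thinned. Between irradiated tumors the 7 became 1 among the 80% barcodes, 3 by library size, 4 with no filter, with the higher fold limit or without the top 5%, and 2 when thinned, and the 11 class calls became 7 among the 80% barcodes. Class differences in MC38 fell from 32 to 19 calls when thinned. DESeq2's scaling, a stricter gate and the remaining settings left each count within 1.5 times.

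Some values changed sign. B2m between irradiated tumors over all CD45+ cells was -0.43 among the 80% barcodes and -0.26 when thinned. Psme1 there was -0.048 among the 80% barcodes, and when thinned -0.18 in NK cells and -0.060 in monocytes. Also when thinned, H2-T24 in MC38 was -0.077, and in T cells H2-T23 and Ifngr1 between untreated and Socs1 between irradiated tumors were -0.024, -0.12 and -0.10. By library size alone, Psmb10 in CD8 T cells against neutrophils was 0.016 and Psmb8 in neutrophils against monocytes -0.0030. The cause was not tested.

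The log2 ratios moved by more than 1 SD as deposited in irradiated MC38 (Psmb8/Psmb5 2.12, Psmb9/Psmb6 0.47). When thinned, Psmb10/Psmb7 was 1.54 in untreated and 1.13 in irradiated MC38, and 1.37 and 1.32 in untreated and irradiated Panc02-SIY. This reversed the direction with radiation in both tumors and the order of the untreated tumors. Psmb8/Psmb5 in the untreated groups was then 2.06 (MC38) and 1.87 (Panc02-SIY), and Psmb9/Psmb6 was 0.90 in irradiated MC38 against 1.43 for Panc02-SIY without radiation. NK cells could not be fitted with the barcode filter. Barcode sharing in MC38 leaves the treatment group of shared barcodes uncertain, and the p-values there take the libraries as independent. The small T, NK and monocyte classes limit what can be detected in MC38.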

Other observations

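MC38 dendritic cells were too few for a fit, with 24 barcodes in the untreated and 23 in the irradiated group, each spread over 4 libraries. Summed over libraries, B2m was 2423 CPM (95% exact Poisson interval 2276 to 2576, counting error only) in untreated and 3069 CPM (2908 to 3237) in irradiated MC38. H2-K1 was 2439 and 2593 CPM, Psmb8 994.3 and 1141 CPM and Tap2 224.1 and 293.6 CPM. Nlrc5 rested on 15 and 21 UMIs, 35.77 CPM (20.02 to 58.99) and 47.43 CPM (29.36 to 72.5). In Panc02-SIY dendritic cells, B2m was 2885 ± 1132 CPM (SD, n = 4) without and 3733 ± 1324 CPM with radiation, and Psmb8 was 1140 ± 111 and 961 ± 178 CPM, with no call.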
